A study of Mus musculus with 6 samples.

Results

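Toll-like receptors and the proteins that help them sense microbes were examined in colons of NHE3-/- mice. These mice lack the brush-border exchanger of sodium and protons encoded by Slc9a3. The genes were Tlr1, Tlr2, Tlr3, Tlr4, Tlr5, Tlr9, Cd14, Ly96, Myd88 and Nod2, taken as every probe set (a group of short oligonucleotides that reads 1 transcript) whose platform annotation names 1 of these genes and no other. This gave 13 of the 45101 probe sets on the array, for 9 of the 10 genes. No probe set naming Nod2 alone was found in the annotation used here, and Nod2 was not analysed here. The groups were NHE3-/- colon (3 arrays) and NHE3+/+ colon from littermates (3 arrays), all from animals 6 to 8 weeks old, hybridised to Affymetrix MOE430 2.0 arrays with a single biotin label. Strain, sex, the disrupted part of Slc9a3 and how many animals an array stands for were left unstated by the sources used here. P-values therefore measure the spread between these arrays, which may be technical.

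Toll-like receptors are membrane proteins that recognise conserved microbial molecules. TLR4 responds to lipopolysaccharide together with the co-receptors CD14 and MD-2 (the product of Ly96), TLR2 pairs with TLR1 or TLR6 to bind bacterial lipopeptides, TLR5 binds flagellin, and TLR3 and TLR9 respond inside the cell to duplex RNA and to CpG DNA. Most of them signal through the adaptor MyD88 to the transcription factor NF-kappaB, whereas TLR3 uses TRIF and TLR4 uses both. In the colon these proteins sit on epithelial and immune cells that face a dense bacterial community.

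Signals are on a linear scale in arbitrary units, scaled by the authors to the same trimmed mean on each array. Correlations of log2 values over all probe sets were 0.960 to 0.967 among NHE3-/- arrays, 0.964 to 0.969 among NHE3+/+ arrays and 0.943 to 0.961 between the genotypes. Colon markers were bright on every array: Muc2, the main intestinal mucin, had signals of at least 41722, and Car1, a colonic carbonic anhydrase, of at least 33084. Slc9a3 itself was not called, and its probe sets ran opposite ways. The brighter had 5970, 4266 and 3665 in NHE3-/- and 5908, 5647 and 6669 in NHE3+/+ (log2 fold change -0.42, adjusted p = 0.120), and the dimmer had 473.4, 608.7 and 264.9 in NHE3-/- and 345.6, 344.8 and 107.8 in NHE3+/+ (0.76, adjusted p = 0.230). A probe set outside the disrupted part checks nothing. The signal of Xist, an RNA of cells with an inactive X chromosome, was 2639, 1929 and 12.3 on NHE3-/- arrays 1, 2 and 3, against 4.3, 8 and 2 on the NHE3+/+ arrays. Eif2s3y, a Y-linked gene, had 932.6, 1088 and 1355 in NHE3-/- and 1434, 1457 and 1809 in NHE3+/+. The calls on sensing genes and on the representative probe sets of the pathway genes are therefore also given with NHE3-/- array 3 alone, which was not done for marker genes.

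Of the 13 probe sets, 12 passed a filter that kept probe sets whose mean log2 value lay at or above the 40th percentile. They were tested in a limma fit over all 27024 probe sets that passed, with Benjamini-Hochberg adjustment and a threshold of 0.05. A single probe set was called, that of Cd14, which was higher in NHE3-/- colon. Over all probe sets tested, 11.2% were called, 4.97% as higher and 6.24% as lower in NHE3-/-. That split of 1342 higher and 1685 lower turned to 1595 higher and 839 lower when array medians were set equal. The count of 1 in 12 is near that background. The median log2 fold change was -0.025 over the 12 probe sets, 5 of which were above 0, and 0.26 over the 9 genes when each was read by its brightest probe set, so the sign depends on how probe sets are counted. It was -0.099 over all probe sets tested, of which 40.1% were above 0. No receptor was called, and none of the 12 was called as lower. At an unadjusted p under 0.05 there were 3 of 12, Cd14, Ly96 and Myd88, all higher in NHE3-/-. Over all probe sets tested the share was 27.6% in either direction, and 10.2% for those higher in NHE3-/-. The 3 of 12 stand near the first share and above the second, on few probe sets.

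**Figure D1:**
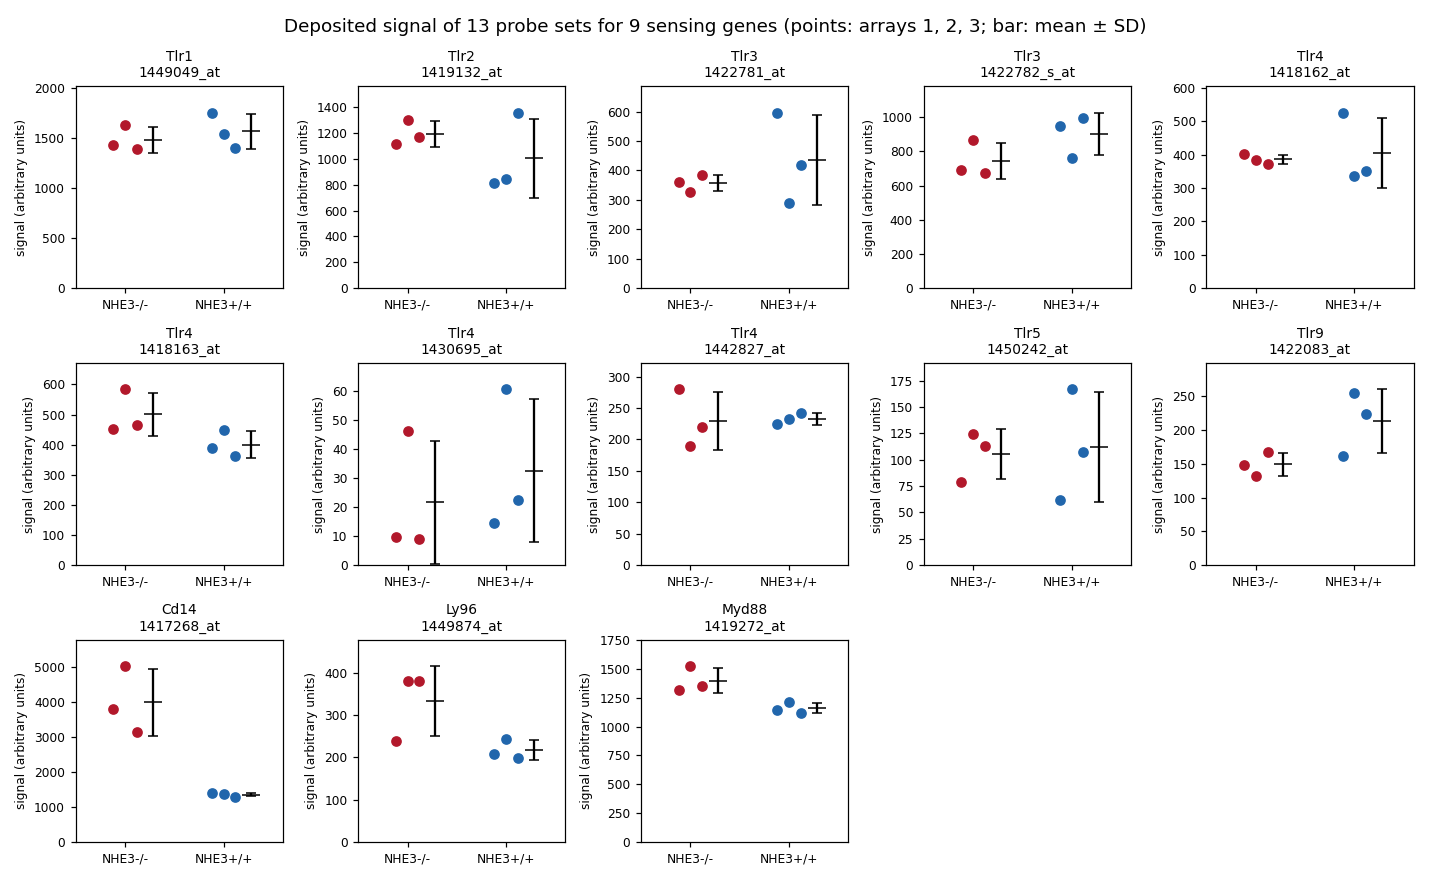
Deposited signal (linear, arbitrary units, each axis from 0) of the 13 probe sets on NHE3-/- arrays (left, red) and NHE3+/+ arrays (right, blue). Points are arrays 1, 2 and 3 and bars are the mean ± SD (n = 3). The Cd14 points of the genotypes are far apart, with 3128 as the lowest NHE3-/- value and 1390 as the highest NHE3+/+ value, while those of most receptors overlap.

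The co-receptors of lipopolysaccharide sensing are described with the receptor they serve. CD14 is a membrane-anchored or soluble protein that hands lipopolysaccharide to the TLR4 complex. Cd14 (probe set 1417268_at) had signals of 3796, 5014 and 3128 on NHE3-/- arrays 1, 2 and 3, against 1390, 1368 and 1291 on NHE3+/+ arrays 1, 2 and 3. Each NHE3-/- array lay above each NHE3+/+ array. The mean was 3979 ± 956 in NHE3-/- and 1349 ± 52.1 in NHE3+/+ (SD, n = 3 each), a ratio of 2.95. The rise of Cd14 was 1.51 on the log2 scale (SE 0.15, 95% interval 1.17 to 1.85, adjusted p = 0.000204, limma). In absolute size this change stood at the 99.0th percentile of all probe sets tested. The spread between arrays was wider among NHE3-/- arrays, where array 2 was highest and array 3 lowest. With NHE3-/- array 3 alone against the NHE3+/+ arrays, a fit that assumes that array to vary like the others, the log2 fold change was 1.19 (adjusted p = 0.00477), and with the Xist signal as a covariate it was 1.19 (adjusted p = 0.00539).

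Ly96 encodes MD-2, the small secreted protein that holds lipopolysaccharide on the surface of TLR4. Ly96 (1449874_at) had 238.2, 381.8 and 381.1 on NHE3-/- arrays 1, 2 and 3 and 207.7, 243.8 and 198.7 on the NHE3+/+ arrays. NHE3-/- arrays 2 and 3 lay above all NHE3+/+ arrays, while NHE3-/- array 1 lay just under NHE3+/+ array 2. The log2 fold change was 0.53 (SE 0.22, 95% interval 0.056 to 1.01, adjusted p = 0.140) and did not pass the threshold.

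Tlr4 was read by 4 probe sets, and they did not run the same way. The brightest by mean log2 value (1418163_at) had 452.1, 583.6 and 466.6 in NHE3-/- against 388.3, 450 and 362.5 in NHE3+/+. All NHE3-/- values were above all NHE3+/+ values, the closest being 452.1 and 450. Its log2 fold change was 0.30 (95% interval -0.068 to 0.67, adjusted p = 0.275), and was 0.19 without NHE3-/- array 2 and 0.45 with quantile normalization. A further probe set (1418162_at) had 401.3, 384.7 and 373.3 in NHE3-/- against 526.8, 336.8 and 351.6 in NHE3+/+, a log2 fold change of -0.037 (95% interval -0.46 to 0.38). Here NHE3+/+ array 1 was above every other array and the groups overlapped. The probe set 1442827_at had 279.8, 189.5 and 219.3 in NHE3-/- against 223.9, 232.1 and 242.6 in NHE3+/+, a log2 fold change of -0.032 (95% interval -0.48 to 0.41). The sign of these last 2 probe sets flips with the scaling between arrays. The dimmest (1430695_at) was under the filter and had 9.6, 46 and 8.9 in NHE3-/- and 14.3, 60.4 and 22.5 in NHE3+/+, with array 2 the highest in each group. Without a filter its log2 fold change was -0.27 (95% interval -1.09 to 0.54). No call on Tlr4 was made, and the intervals of the 3 tested probe sets include changes of up to 0.67 on the log2 scale in NHE3-/-.

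**Figure D2:**
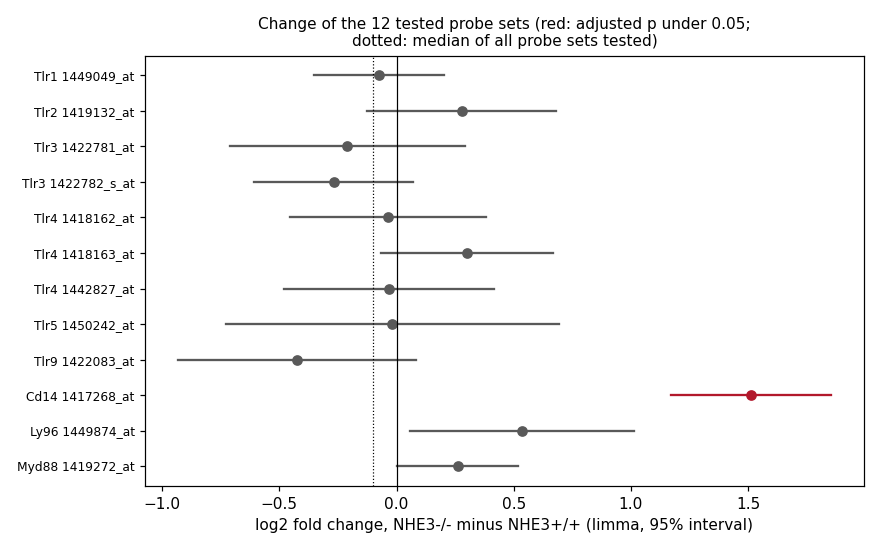
Log2 fold change (NHE3-/- minus NHE3+/+, horizontal axis) of the 12 tested probe sets with limma's 95% interval; red marks an adjusted p under 0.05, and the dotted line is the median of all probe sets tested (-0.099). Cd14 stands at 1.51, and the next highest, Ly96, at 0.53.

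TLR1 and TLR2 form the receptor for triacylated bacterial lipopeptides. The Tlr1 signal (1449049_at) was 1433, 1632 and 1392 in NHE3-/- and 1758, 1546 and 1405 in NHE3+/+, with overlapping groups. Its log2 fold change was -0.075, with a 95% interval of -0.35 to 0.20 (adjusted p = 0.744), the narrowest range among the Toll-like receptors measured. The sign turned to positive, 0.019, with the medians of the arrays set equal. The Tlr2 signal (1419132_at) was 1114, 1306 and 1166 in NHE3-/- and 817.8, 841.4 and 1360 in NHE3+/+. NHE3+/+ array 3 was higher than every NHE3-/- array, and the other NHE3+/+ arrays were lower than all of them. The log2 fold change was 0.28 (95% interval -0.13 to 0.68, adjusted p = 0.358), and it depended on single NHE3+/+ arrays. It was 0.15 without NHE3+/+ array 1, 0.17 without array 2 and 0.51 without array 3 (adjusted p = 0.660, 0.653 and 0.0576). Tlr6, the alternative partner of TLR2, had 138.3, 130.8 and 85.3 in NHE3-/- and 141.8, 161.3 and 112.7 in NHE3+/+ (log2 fold change -0.19, adjusted p = 0.676).

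Tlr5, the flagellin receptor, had a dim signal (1450242_at) of 78.9, 124 and 113.4 in NHE3-/- against 62.1, 166.9 and 107.5 in NHE3+/+. NHE3+/+ arrays held both the lowest and the highest value. Its log2 fold change of -0.018 had a 95% interval of -0.73 to 0.69, the widest of the 12, so changes of this size in either direction could not be told from none with these arrays. Its sign flips with the scaling between arrays.

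Among the receptors of nucleic acids, Tlr3 was read by 2 probe sets. The brighter (1422782_s_at, whose suffix marks probes that may match more than 1 transcript) had 693.6, 865.1 and 672.8 in NHE3-/- against 949, 761.3 and 997 in NHE3+/+, a log2 fold change of -0.27 (95% interval -0.61 to 0.072, adjusted p = 0.289). The other (1422781_at) had 361.4, 328.4 and 384.2 in NHE3-/- against 597, 291.1 and 417.3 in NHE3+/+, a log2 fold change of -0.21 (adjusted p = 0.594). Both probe sets averaged lower in NHE3-/-, with ratios of means of 0.824 and 0.823, and both had overlapping groups. Without NHE3+/+ array 1 the log2 fold change of the dimmer was 0.031, and without NHE3+/+ array 2 it was -0.45. With medians set equal the brighter had -0.17 and the dimmer -0.12, and with quantile normalization the dimmer had -0.041.

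Tlr9 (1422083_at) had 149, 131.5 and 166.8 in NHE3-/- against 161.9, 254.3 and 223.9 in NHE3+/+. NHE3+/+ arrays 2 and 3 lay above all NHE3-/- arrays, and NHE3+/+ array 1 lay among them. The log2 fold change was -0.43 (SE 0.23, 95% interval -0.93 to 0.082, adjusted p = 0.261), the most negative of the 12, and it was -0.27 with quantile normalization. B cells express Tlr9. The summed signal of 9 B cell markers ran from 937.9 to 2248 in NHE3-/- and from 2123 to 5572 in NHE3+/+, with overlap. This sum was highest on NHE3+/+ array 2, where Tlr9 was highest as well. Among NHE3-/- arrays it was lowest on array 3, where Tlr9 was the highest of that group. Log2 fold changes were below 0 for 8 of the 9 markers and above 0 for 1, with a median of -1.13. Of these 9 genes 7 did not pass, 0 rose and 2 fell (22.2% called, against 11.2% over all probe sets tested). These were Fcer2a, the low-affinity IgE receptor, with 70.9, 24 and 75.3 in NHE3-/- against 144.8, 565.8 and 339.2 in NHE3+/+ (adjusted p = 0.0128), and Bank1, a B cell scaffold protein, with 208.9, 111.8 and 81.7 in NHE3-/- against 273.5, 622.7 and 299.7 in NHE3+/+ (adjusted p = 0.0276). Less the mean log2 value of the 9 markers, Tlr9 stood at 0.097 ± 0.56 in NHE3-/- and -0.53 ± 0.37 in NHE3+/+ (SD, n = 3 each). Relative to these markers it averaged higher in NHE3-/-, but the groups overlapped. The values were -0.47, 0.12 and 0.64 on NHE3-/- arrays 1, 2 and 3 and -0.31, -0.96 and -0.32 on NHE3+/+ arrays 1, 2 and 3. The part of B cells in the Tlr9 values was not tested. In whole tissue, fewer cells of a type and less RNA per cell cannot be told apart.

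MyD88 is the adaptor that links most Toll-like receptors, and the interleukin-1 and interleukin-18 receptors, to IRAK kinases. Myd88 (1419272_at) had 1321, 1526 and 1354 in NHE3-/- against 1149, 1215 and 1123 in NHE3+/+. All NHE3-/- arrays lay above all NHE3+/+ arrays. The log2 fold change was 0.26 (SE 0.12, 95% interval 0.002 to 0.52, adjusted p = 0.178) and did not pass. Groups did not overlap for 3 of the 12 tested probe sets (Cd14, Myd88 and the first Tlr4 set), in each case with NHE3-/- above, and 0 lay below. Over all probe sets tested, 32.3% had groups that did not overlap, 12.2% with NHE3-/- above and 20.1% with NHE3-/- below.

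The promoters of 3 genes are shown as reference sequence from RefSeq (GRCm38.p6), each with 250 bases before and 50 after the start of the gene. Myd88 is shown as the adaptor whose groups did not overlap, Tlr2 as the lipopeptide receptor of highest log2 fold change, and Tlr9 as the receptor of lowest log2 fold change. RefSeq windows were at hand for 7 of the 10 genes, and Tlr4, Cd14 and Ly96 had none. Capitals mark matches, on either strand, to an NF-kappaB pattern (GGGNNNNNCC), a GAS pattern for STAT factors (TTCNNNGAA) or an ISRE pattern for interferon-regulated factors (GAAANNGAAA). The Myd88 window lies at chr9:119339969-119340268, minus strand, the Tlr2 window at chr3:83841559-83841858, minus strand and the Tlr9 window at chr9:106222348-106222647, plus strand.
Myd88: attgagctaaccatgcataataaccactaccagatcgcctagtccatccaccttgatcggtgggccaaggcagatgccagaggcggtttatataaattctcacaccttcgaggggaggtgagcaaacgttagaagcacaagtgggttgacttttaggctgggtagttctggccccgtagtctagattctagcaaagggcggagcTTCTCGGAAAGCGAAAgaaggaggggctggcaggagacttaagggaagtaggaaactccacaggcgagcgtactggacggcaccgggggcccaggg
Tlr2: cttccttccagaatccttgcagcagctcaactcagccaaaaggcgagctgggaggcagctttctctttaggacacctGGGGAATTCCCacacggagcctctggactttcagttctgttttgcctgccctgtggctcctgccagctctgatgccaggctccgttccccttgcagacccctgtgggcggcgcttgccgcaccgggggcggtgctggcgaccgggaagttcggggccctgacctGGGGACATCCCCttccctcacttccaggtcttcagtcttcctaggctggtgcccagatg
Tlr9: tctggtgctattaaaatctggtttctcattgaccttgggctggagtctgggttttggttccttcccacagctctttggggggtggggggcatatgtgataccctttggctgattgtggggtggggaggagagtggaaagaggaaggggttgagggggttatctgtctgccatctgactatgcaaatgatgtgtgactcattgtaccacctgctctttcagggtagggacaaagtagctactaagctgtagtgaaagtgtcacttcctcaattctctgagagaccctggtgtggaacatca
The Myd88 window held 1 GAS match and 1 ISRE match, which overlap each other, and no NF-kappaB match. The Tlr2 window held 5 NF-kappaB matches in 2 places, where shifted matches overlap, and no match to the other patterns. The Tlr9 window held no match to any of the 3. Among 32851 promoter windows of the same length, 50.8% held an NF-kappaB match, 8.3% a GAS match and 3.4% an ISRE match. A match describes letters in the window and was not tied to any change measured here.

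Cell types that carry CD14 were read through marker genes. Of 14 macrophage and monocyte markers, 13 had a probe set, 11 were tested, and 0 rose and 0 fell. Over all probe sets tested 11.2% were called, so a count of 0 among 11 is near that background. Their summed signal ran from 3180 to 4053 in NHE3-/- and from 3289 to 6229 in NHE3+/+, highest on NHE3+/+ array 2. Lyz2, a lysozyme of myeloid cells, had 1910, 1284 and 954.2 in NHE3-/- against 1351, 3290 and 1344 in NHE3+/+. Csf1r, the receptor that macrophages need to survive, had 588.8, 801.6 and 664.3 in NHE3-/- against 520.4, 1254 and 639.5 in NHE3+/+. The 11 did not run the same way, with log2 fold changes above 0 for 6 and below 0 for 5, and the bright Lyz2 and Csf1r set much of the sum. Mrc1, a mannose receptor, had 195.5, 212.6 and 210.9 in NHE3-/- against 152, 168.7 and 114.2 in NHE3+/+ and Itgax, an integrin, 131, 90.8 and 136.4 in NHE3-/- against 86.8, 63.3 and 83.2 in NHE3+/+, with no overlap in either, although neither passed (adjusted p = 0.221 and 0.310). Over all probe sets tested, 12.2% had no overlap with NHE3-/- above. The markers Itgam and Cd163 were under the filter. Subtracting the mean log2 value of the 11 tested markers from that of Cd14 gave 3.91 ± 0.21 in NHE3-/- and 2.50 ± 0.20 in NHE3+/+ (SD, n = 3 each), a difference of 1.41 on the log2 scale. The mean log2 value of the markers was 8.03 ± 0.15 in NHE3-/- and 7.93 ± 0.22 in NHE3+/+, so the subtraction changed the Cd14 difference little. The part of macrophages in the Cd14 values was not tested.

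Of 11 neutrophil markers, 10 had a probe set and 3 were tested. Of the 3, 2 rose (66.7% called, against 11.2% over all probe sets tested). They were S100a8, a calprotectin subunit (log2 fold change 4.20), and Ltf, lactoferrin (2.45), both of which epithelial cells can also make. These passed the filter through the NHE3-/- arrays, and the other 7 were under it. Ngp, a granule protein and the remaining tested marker, had 106.3, 62.2 and 94.3 in NHE3-/- against 95.5, 99.1 and 71.7 in NHE3+/+ (log2 fold change -0.025, adjusted p = 0.967). The summed signal of the 10 ran from 1442 to 3851 in NHE3-/- and from 345.1 to 524.8 in NHE3+/+. S100a8 and Ltf made up most of that sum on each NHE3-/- array. The defining receptors were at the low end: Csf3r had 61.2, 56.8 and 34.2 in NHE3-/- and 52.9, 78.1 and 83 in NHE3+/+, and Cxcr2 had 9.1, 60.2 and 20.8 in NHE3-/- and 24.4, 37.4 and 22.6 in NHE3+/+. Also under the filter, S100a9 had 146.8, 78.2 and 50.6 in NHE3-/- against 30.1, 41.1 and 28.1 in NHE3+/+. Mmp8 had 33.5, 22.6 and 60.5 in NHE3-/- against 15.1, 22.4 and 10.5 in NHE3+/+. Neither S100a9 nor Mmp8 overlapped between the groups, while Camp, Mpo and Elane, also under the filter, did. S100a8 was highest on NHE3-/- array 1 (3034) and lowest of that group on array 2 (717.7), the array on which Cd14 was highest. Ltf had 409.9, 399 and 238.8 on NHE3-/- arrays 1, 2 and 3, and was lowest on array 3, where Cd14 was lowest of that group as well. Less the mean log2 value of the 3 tested neutrophil markers, Cd14 stood at 3.297 ± 0.653 in NHE3-/- and 3.996 ± 0.061 in NHE3+/+ (SD, n = 3 each). The difference was -0.699, so relative to these markers Cd14 averaged lower in NHE3-/-. The groups overlapped, with 2.74, 4.02 and 3.13 in NHE3-/- against 4.06, 3.94 and 3.98 in NHE3+/+. The marker mean itself was 8.65 ± 0.46 in NHE3-/- and 6.43 ± 0.063 in NHE3+/+, a rise through S100a8 and Ltf. The part of neutrophils in the Cd14 values was not tested. Of 10 epithelial markers, all tested, 1 rose (Vil1, villin) and 2 fell (Krt18, a keratin, and Cdx2, an intestinal transcription factor), so that 30% were called. Their summed signals were 198272 to 230806 in NHE3-/- and 187820 to 213382 in NHE3+/+. Less the mean of these 10, Cd14 stood at -2.03 ± 0.36 in NHE3-/- and -3.52 ± 0.10 in NHE3+/+ on the log2 scale (SD, n = 3 each). Of 8 colon markers 4 rose, the transport genes Car4, Aqp8 and Slc26a3 and the homeobox gene Hoxb13, and 1 fell, Cdx2 (62.5% called). Their summed signal ran from 178643 to 237720 in NHE3-/- and from 134616 to 175484 in NHE3+/+. The part of these cells in the Cd14 values was not tested.

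**Figure D3:**
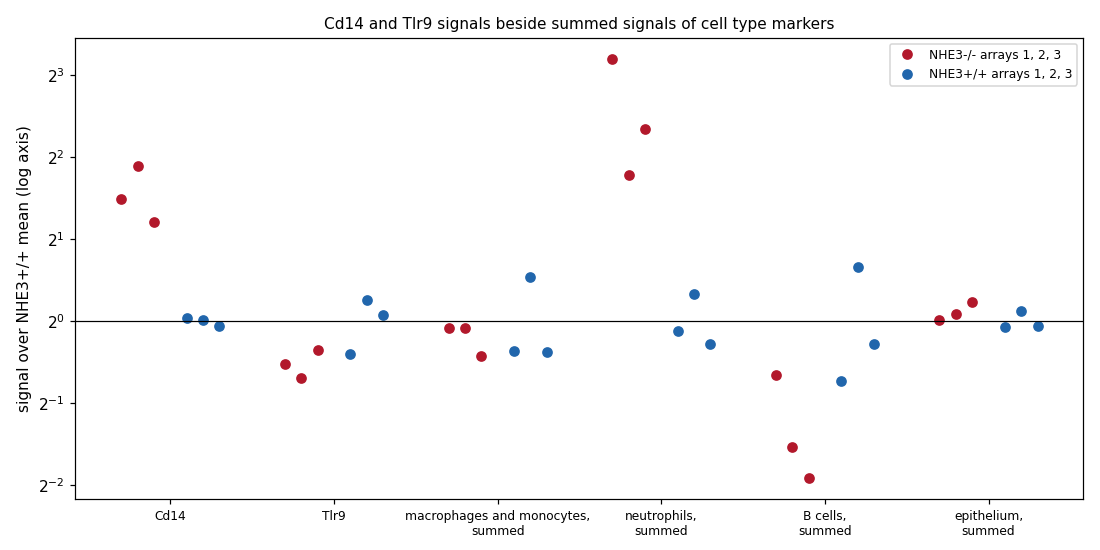
Signal of Cd14, of Tlr9 and of summed cell type markers on each array, divided by the NHE3+/+ mean (log axis; red, NHE3-/- arrays; blue, NHE3+/+ arrays; arrays 1, 2 and 3 from left to right). Cd14 and the neutrophil sum are higher on every NHE3-/- array, where S100a8 and Ltf make up most of that sum. The macrophage, epithelial and B cell sums overlap between the genotypes. The B cell sum is highest on NHE3+/+ array 2 (5572), as is the macrophage sum.

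Transcripts whose values over the 6 arrays were most like those of Cd14, after centring each on its own mean, were Spata3 (root mean square difference 0.16 on the log2 scale), Clic5, an intracellular chloride channel protein found in microvilli (0.17), and Gda, guanine deaminase (0.17). Their log2 fold changes were 1.51, 1.41 and 1.58. Values near that of Cd14 follow from this way of picking, since the 6 arrays include both genotypes.

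Other microbial receptors around these genes were read as a list. It was drawn up with earlier results of these data known. Of 36 genes, 29 had a probe set and 22 were tested, each through its brightest probe set by mean log2 value. Of the 22, 2 rose and 1 fell (13.6%, near the 11.2% over all probe sets), and the median log2 fold change was 0.25, against -0.099 over all probe sets tested. Pglyrp1, a secreted protein that binds bacterial peptidoglycan, had 18006, 22072 and 22669 in NHE3-/- against 8752, 9102 and 8853 in NHE3+/+, with no overlap. It rose by 1.22 (SE 0.11, adjusted p = 7.8e-05), and by 1.35 with NHE3-/- array 3 alone (adjusted p = 0.000986). Lbp, which loads lipopolysaccharide onto CD14, had 246.8, 709.2 and 406.1 in NHE3-/- against 151.2, 220.9 and 88.6 in NHE3+/+. The groups did not overlap, although 246.8 and 220.9 lay close. It rose by 1.34 (SE 0.36, adjusted p = 0.0348). A dimmer Lbp probe set was under the filter. The Lbp call was lost in 8 of 16 alternatives. These included the fits without NHE3-/- array 2 (0.98, adjusted p = 0.106) or 3 (1.36, adjusted p = 0.0830) and without NHE3+/+ array 1 (1.37, adjusted p = 0.0679) or 3 (1.06, adjusted p = 0.115). Lbp had 1.31 with NHE3-/- array 3 alone (adjusted p = 0.0928).

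Nod1, a cytosolic receptor for peptidoglycan fragments of mainly Gram-negative bacteria, and a close relative of Nod2, was the gene that fell. It had 130, 202.1 and 101 in NHE3-/- against 267, 362.2 and 297.4 in NHE3+/+, so that each NHE3-/- array lay below each NHE3+/+ array. The log2 fold change was -0.98 (SE 0.25, adjusted p = 0.0286). The call was lost in 7 of 16 alternatives. These included the fits without NHE3-/- array 1 (-0.94) or 3 (-0.80), without NHE3+/+ array 2 (-0.87) or 3 (-1.004), and with quantile normalization (-0.85). With NHE3-/- array 3 alone Nod1 was called, at -1.35 (adjusted p = 0.0290). Among genes not called, Nlrp6, an epithelial inflammasome sensor, had 3400, 4392 and 4178 in NHE3-/- against 2841, 2936 and 3319 in NHE3+/+ (log2 fold change 0.39, adjusted p = 0.0664). Naip2, which detects a part of the type III secretion system in mice, had 2063, 1867 and 1951 in NHE3-/- against 1510, 1602 and 1510 in NHE3+/+ (log2 fold change 0.34, adjusted p = 0.0653). Neither passed, although neither overlapped between groups. Over all probe sets tested, 12.2% had no overlap with NHE3-/- above. Of the 22 tested genes of this list, 12 had log2 fold changes above 0 and 10 below 0. Tlr7, Tlr8 and Tlr12 were under the filter, with no signal above 102.6 on any array.

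Of 43 genes of signalling and its regulators, 34 had a probe set and 33 were tested, of which 4 rose and 1 fell (15.2%, near the 11.2% over all probe sets). The median log2 fold change was 0.07. The largest increase was that of Tnfaip3, which encodes A20, an enzyme that edits ubiquitin chains and restrains NF-kappaB signalling downstream of TRAF6. It had 2844, 2628 and 3130 in NHE3-/- against 1433, 1454 and 1123 in NHE3+/+, with no overlap, and rose by 1.09 on the log2 scale (SE 0.13, adjusted p = 0.000549). The rise was 1.22 with NHE3-/- array 3 alone (adjusted p = 0.00823). A dimmer Tnfaip3 probe set was also called, with 753.5, 819.9 and 876.1 in NHE3-/- against 427.9, 446.9 and 250.6 in NHE3+/+ (1.10, adjusted p = 0.00685). Tnip1, a binding partner of A20, had 7206, 6142 and 7039 in NHE3-/- against 4460, 5021 and 4653 in NHE3+/+ and rose by 0.52 (adjusted p = 0.00954). Tnfaip3 and Tnip1 are both known as inhibitors of the pathway. Other regulators of the list were not called and ran both ways. Among them were Irak3 (-0.57), Trafd1 (-0.40), Tollip (0.012), Sigirr (0.13), Socs1 (0.21) and Cyld (0.31). Irak2, a kinase of the MyD88 complex, had 1355, 1242 and 1555 in NHE3-/- against 884.3, 1005 and 917.9 in NHE3+/+ and rose by 0.55 (adjusted p = 0.0215). Mavs, the adaptor of cytosolic RNA sensing, had 1210, 1132 and 1341 in NHE3-/- against 871.1, 813.6 and 871.4 in NHE3+/+ and rose by 0.51 (adjusted p = 0.0242). None of the 4 overlapped between the groups. With NHE3-/- array 3 alone the calls of Tnip1 (0.58, adjusted p = 0.0525), Irak2 (0.72, adjusted p = 0.0544) and Mavs (0.64, adjusted p = 0.0795) were lost. Irak2 was not called without NHE3-/- array 1 (0.56) or 3 (0.46) or without NHE3+/+ array 1 (0.51) or 3 (0.53). Mavs was not called without NHE3-/- array 1 (0.52) or 3 (0.45) or without NHE3+/+ array 2 (0.48) or 3 (0.52). A second Mavs probe set had 0.23 (adjusted p = 0.390).

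Irak1, the kinase that MyD88 recruits through IRAK4, was the gene that fell. The brightest of its probe sets (1438120_x_at, whose suffix marks probes shared with other sequences) had 476.8, 774.4 and 298.6 in NHE3-/- against 1008, 956.9 and 1379 in NHE3+/+. All NHE3-/- arrays lay below all NHE3+/+ arrays, and the log2 fold change was -1.14 (SE 0.27, adjusted p = 0.0230). Of its other 3 probe sets, 1460649_at was called too, with 520.2, 503.2 and 438.8 in NHE3-/- against 690.3, 765.6 and 679.4 in NHE3+/+ (-0.52, adjusted p = 0.0396). The remaining sets had -0.48 (adjusted p = 0.133) and -0.47 (adjusted p = 0.159). All 4 averaged lower in NHE3-/-. The call on the brightest was lost without NHE3-/- array 1 (-1.13) or 3 (-0.82) or without NHE3+/+ array 2 (-1.24) or 3 (-0.98). With NHE3-/- array 3 alone it was called at -1.78 (adjusted p = 0.00390). The other adaptors Tirap (0.20, adjusted p = 0.386) and Ticam1, which encodes TRIF (0.20, adjusted p = 0.358), and the ubiquitin ligase Traf6 (-0.18, adjusted p = 0.588) did not pass.

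**Figure D4:**
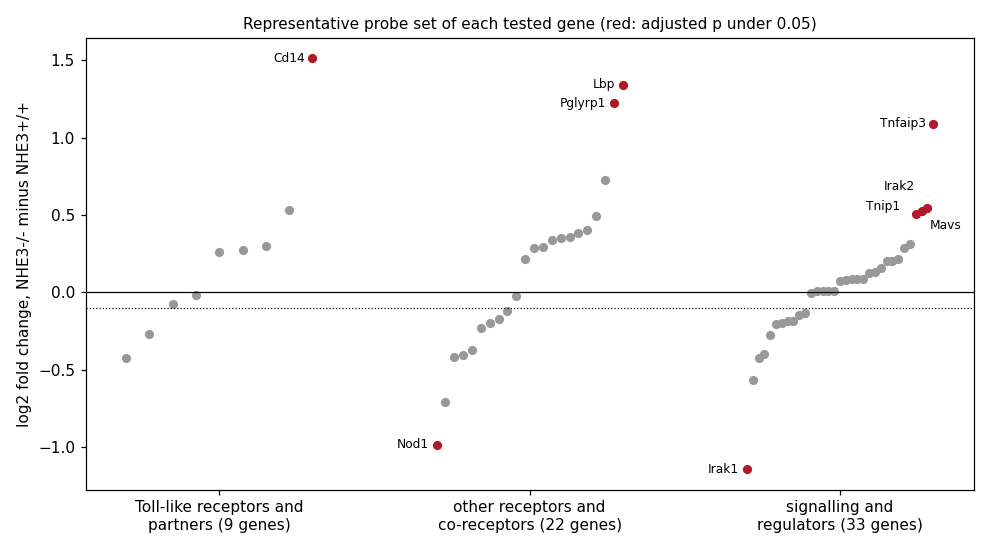
Log2 fold change (NHE3-/- minus NHE3+/+, vertical axis) of the representative probe set of each tested gene in 3 lists, ordered within a list by value. Red points passed an adjusted p of 0.05 and are named; the dotted line is the median of all probe sets tested (-0.099). Of the 9 Toll-like receptors and partners only Cd14 is red, at 1.51.

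**Figure D5:**
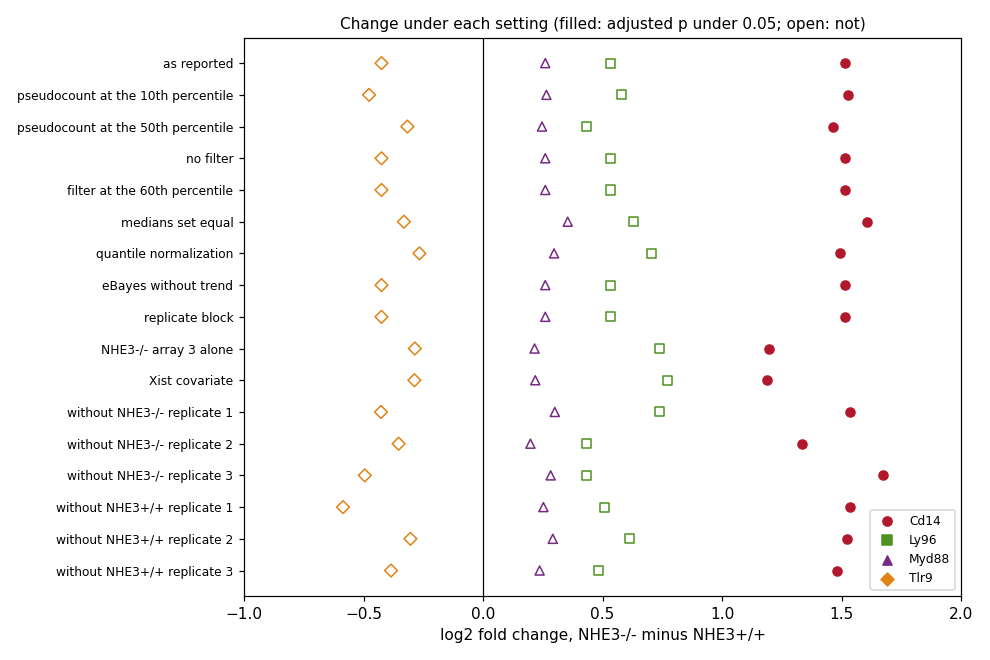
Log2 fold change (NHE3-/- minus NHE3+/+, horizontal axis) of Cd14, Ly96, Myd88 and Tlr9 as reported and under each of 16 other settings (vertical axis). Filled points passed an adjusted p of 0.05. Cd14 is filled in each row and lies between 1.19 and 1.67, while Ly96, Myd88 and Tlr9 keep their sign and are not filled.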

How the data were processed

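RNA of whole colon was read on 6 Affymetrix MOE430 2.0 arrays, from 10 ug total RNA each per the labels. Each deposited value is the linear intensity of a probe set on 1 array. GCOS is named by the submitters' processing notes, while its version, settings and detection calls are unknown. The authors' scaling shows as a mean of 500 on each array after trimming 2% from each end. Median signals were 97.8 to 103.9 in NHE3-/- and 99.7 to 121.4 in NHE3+/+. Precision is limited by the number of arrays.

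Here log2(signal + 31.4) was taken, where 31.4 is the 25th percentile of the deposited intensity values. Fold changes on this scale understate those of dim transcripts. The 64 array controls and probe sets under the 40th percentile of mean log2 value were left out. The groups were compared in limma 3.58.1 (R 4.3.3, lmFit, eBayes with trend, two-sided, checked on simulated data). The platform annotation names 1 gene for 34958 probe sets, several for 932 and none for 9211, and 34754 of the 34958 matched RefSeq by gene ID.

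The genes, lists and tests were chosen with earlier results of these data known. By rule, every probe set of the sensing genes, the called genes of each pathway list and the 3 transcripts most like a called sensing gene were named. Nlrp6, Naip2, Tlr6, Tlr7, Tlr8, Tlr12, Tirap, Ticam1, Traf6, single marker genes, the marker subtractions and the promoters shown were picked after their values were seen. So were Irak3, Trafd1, Tollip, Sigirr, Socs1 and Cyld. The 16 alternatives changed the pseudocount, filter, scaling, error model, replicate block, treatment of arrays with Xist signal, or left out 1 array.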

Additional observations from a re-analysis of the deposited data

How the results depend on the processing

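The counts of 1 sensing probe set higher and 0 lower were the same under all 16 alternatives. Cd14 was called in each, with log2 fold changes from 1.19 to 1.67 and adjusted p from 8.0e-05 to 0.0145. No other sensing probe set was called under any of them. Signs reversed for values that were not called. With medians set equal, 1418162_at (Tlr4) had 0.057, 1442827_at (Tlr4) 0.061, Tlr1 0.019 and Tlr5 0.076. With quantile normalization the same Tlr4 sets had 0.13 and 0.15, and Tlr5 0.064. Tlr5 had 0.079 with NHE3-/- array 3 alone, 0.092 with the Xist covariate, 0.13 without NHE3-/- array 1 and 0.25 without NHE3+/+ array 2. Without NHE3+/+ array 1, 1418162_at had 0.15, 1422781_at (Tlr3) 0.031 and Tlr1 0.0083, and without NHE3-/- array 2, 1442827_at had 0.081. With 1 array left out, the ranges were -0.15 to 0.15 for 1418162_at, -0.45 to 0.031 for 1422781_at, -0.17 to 0.081 for 1442827_at, -0.15 to 0.0083 for Tlr1 and -0.29 to 0.25 for Tlr5. The cause was not tested. Tlr5 had no value with the filter at the 60th percentile, which left it out.

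Of other receptors, 1 was higher (2 as reported) without a filter, without a trend, with NHE3-/- array 3 alone or with the Xist covariate, and 1 to 3 with 1 array left out. The lower count (1 as reported) was 0 without a filter, with quantile normalization or without a trend, 2 with the replicate block, NHE3-/- array 3 alone or the Xist covariate, and 0 to 2 with 1 array left out. Of signalling genes, 1 was higher (4 as reported) without a trend or with NHE3-/- array 3 alone, and 2 to 4 with 1 array left out, while 0 were lower (1 as reported) without a trend and 0 to 2 with 1 array left out. Pglyrp1 and Tnfaip3 were called under all 16. Whether same-numbered arrays were paired is unknown. Their deviations from the group means correlated at 0.026, -0.038 and 0.0034, which with 3 arrays per group cannot exclude a shared litter or batch. With the replicate block Cd14 had an adjusted p of 0.000272, the only sensing probe set called, and 1156 probe sets were higher and 1384 lower over the array, against 1342 and 1685 as reported. With medians set equal 1595 were higher and 839 lower, and the median log2 fold change was -0.0051 in place of -0.099. Without a trend 511 were higher and 558 lower, and without a filter 1075 and 1128. With NHE3-/- array 3 alone 767 were higher and 1268 lower. Quantile normalization gave 1337 higher and 1333 lower. Leaving out 1 array gave 839 to 1211 higher and 775 to 1385 lower. Signals near the filter, such as Tlr5, limit what could be seen.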
